A study of Mus musculus with 14 samples.

Results

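The thioredoxin and glutaredoxin systems were followed in the retinal pigment epithelium (RPE) of rd1 mice through 10 genes: the thioredoxins Txn1 and Txn2, the thioredoxin reductases Txnrd1, Txnrd2 and Txnrd3, the thioredoxin inhibitor Txnip, the sulfiredoxin Srxn1 and the glutaredoxins Glrx, Glrx2 and Glrx5. They were taken by name, with earlier results of these data known. All 10 were found among 34452 mouse gene rows, and all 10 were among the 16289 mouse genes with enough counts to be tested. The rd1 strain (FVB/N) carries a Pde6b allele with total loss of function, whose rods die early, and both groups carried it. In each of 7 mice at postnatal day 20, 1 eye had received AAV-Best1-Nrf2, an adeno-associated virus with human Nrf2 (NFE2L2) under the RPE promoter Best1, together with AAV-Best1-GFP, and the other eye had received AAV-Best1-GFP alone. The groups are called Nrf2 and control, and libraries carry the number in their label, taken as that of their mouse. The capsids of the vectors differed, so the Nrf2 eye differed from its partner by the transgene and by an added virus, which cannot be told apart here.

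Thioredoxins are small proteins that reduce disulfides in other proteins and are themselves reduced by thioredoxin reductases, which are selenoproteins, with electrons from NADPH. Cells keep separate sets in the cytosol (Txn1 and Txnrd1) and in mitochondria (Txn2 and Txnrd2). Glutaredoxins draw electrons from glutathione instead, and Glrx5 serves the assembly of iron-sulfur clusters in mitochondria. Srxn1 repairs overoxidized peroxiredoxins. Nrf2 binds antioxidant response elements in DNA, and Txnrd1 and Srxn1 are classical targets of it.

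Promoter windows are shown first, because they let the cytosolic and mitochondrial reductases be compared at the level of sequence. Each runs from 250 bases before to 50 bases after a start site, 5′ to 3′ on the strand of the gene (RefSeq, GRCm38.p6, plus strand in all 3). Capitals mark matches, on either strand, to the core of the antioxidant response element, TGACNNNGC, and to TGACTCA, an element of the AP-1 type chosen after the windows had been read. Positions count from the start site.

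Srxn1, chr2:152105274-152105573: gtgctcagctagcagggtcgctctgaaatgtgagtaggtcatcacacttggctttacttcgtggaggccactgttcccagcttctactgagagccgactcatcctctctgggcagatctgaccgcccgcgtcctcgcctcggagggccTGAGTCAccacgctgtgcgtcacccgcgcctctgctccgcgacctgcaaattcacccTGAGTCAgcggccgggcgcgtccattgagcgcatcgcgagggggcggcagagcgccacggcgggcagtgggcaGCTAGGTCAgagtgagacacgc

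Txnrd1, 1 of 3 annotated starts, chr10:82858956-82859255: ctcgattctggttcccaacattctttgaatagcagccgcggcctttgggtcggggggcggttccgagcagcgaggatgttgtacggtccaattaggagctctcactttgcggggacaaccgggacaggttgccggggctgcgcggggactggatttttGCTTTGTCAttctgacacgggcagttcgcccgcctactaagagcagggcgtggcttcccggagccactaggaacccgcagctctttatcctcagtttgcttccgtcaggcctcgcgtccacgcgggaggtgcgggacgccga

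Txnrd2, chr16:18426167-18426466: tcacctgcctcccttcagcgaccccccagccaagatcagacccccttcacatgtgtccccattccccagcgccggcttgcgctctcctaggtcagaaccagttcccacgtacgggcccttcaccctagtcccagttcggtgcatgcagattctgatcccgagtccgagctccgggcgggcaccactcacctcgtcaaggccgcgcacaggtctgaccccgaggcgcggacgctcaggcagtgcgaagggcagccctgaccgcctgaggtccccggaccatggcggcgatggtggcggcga

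Windows were available for all 10 genes, 16 in total. The core TGACNNNGC was found in those of Srxn1, beginning at position 29 after the start site, and Txnrd1, beginning 92 bases before it, each read on the opposite strand (GCTAGGTCA and GCTTTGTCA as printed). The windows at the other annotated starts of Txnrd1, not printed here, held no core, and Txnrd2 had no further window. Thus 2 of 10 genes held the core in at least 1 window, against 13.99% of 27025 genes with a window. The element TGACTCA was found at 2 positions of the Srxn1 window, which begin 102 and 45 bases before the start site, and once in that of Glrx, and 5.95% of all genes had it. The match 45 bases before the Srxn1 start reads on as TGAGTCAgc, which differs from the core TGACNNNGC only by a G for its first C. The search for exact letters did not count it as a core. The E-box CACGTG, searched first, was found in Glrx2 only of the 10 genes and in 8.09% of all genes. No match to any of these sets of letters was found in the windows of Txn1, Txn2, Txnrd2, Txnrd3, Txnip or Glrx5. A match is a likeness of letters in a short window and was not tested as a binding site.

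Total counts ranged from 16548349 to 50543008 per library, and each of the 10 genes had at least 204 counts in every library. The vector transcript averaged more in Nrf2 eyes, from 1163 to 8711 CPM (the count divided by the library total and multiplied by 1000000), than in control eyes, from 1.12 to 1163 CPM. Its fitted log2 difference of 7.36 (SE 1.74, edgeR adjusted p 0.0598) missed the threshold that is used below. Mouse Nfe2l2 itself averaged 76.6 ± 13.5 CPM in control and 84.3 ± 11.03 CPM in Nrf2 eyes (SD, n = 7, log2 fold change 0.28, edgeR adjusted p 0.20). Control 3 and Nrf2 4, as labelled, met at 1163 CPM. These libraries were also the most alike of the 91 pairs of libraries, at 3.93 times the difference that sampling alone gives over 14177 genes, against 12.1 times for the next pair. Whether a label was exchanged or a library mixed was not tested, so values over all mice, the overlap of groups and the position of control 3 hold for the libraries as labelled. Tests and SDs over 7 mice count both libraries as separate eyes, which was not tested either. Results are given for all 7 mice. For Txnrd1, Srxn1, Txnip, the cytosolic and mitochondrial pairs and some counts and listed genes, they are therefore also given without mice 3 and 4. Summed CPM of 10 RPE markers lay between 8840 and 19570 in control and between 15998 and 22345 in Nrf2 eyes. In edgeR 1 of them, Rpe65, was lower in Nrf2 eyes and 0 were higher. DESeq2 called 1 lower and 1 higher, as did an unadjusted p under 0.05. Log2 fold changes were above 0 for 6 and below 0 for 4. Ttr weighed on the sums, at a mean of 3401 CPM in control and 9005 CPM in Nrf2 eyes (edgeR adjusted p 0.10). Rlbp1 averaged 1876 and 1249 CPM (edgeR adjusted p 0.41). The sums thus do not show that RPE markers rose together. Summed CPM of 8 cone markers had a median of 336 in control eyes (41.3 to 1054) and 31.0 in Nrf2 eyes (17.5 to 103). All 8 cone markers had a log2 fold change below 0, as did 54.8% of all genes. Lower were 2 of 8 in edgeR (0.491% of all genes), 6 in DESeq2 (4.33%) and 7 at an unadjusted p under 0.05 (7.49%). The shares of all genes that were higher were 2.94%, 7.6% and 10.7% in the same order. Rod markers summed to 90.7 to 565 CPM in control and 136 to 536 CPM in Nrf2 eyes, with 1 of 8 higher (Rom1) and 0 lower in edgeR, and 1 higher and 3 lower both in DESeq2 and at an unadjusted p under 0.05. Of the markers of inner retina, immune cells, fibroblasts, endothelium, muscle and blood 0 passed in edgeR, although at an unadjusted p under 0.05 there were 1 higher and 3 lower of 9 inner retina markers, 1 lower of 8 immune and 1 lower of 4 blood markers, and DESeq2 called 2 immune markers and 1 inner retina marker higher and 1 and 3 lower. Without mice 3 and 4, edgeR called 1 rod and 1 inner retina marker higher (2.98% of all genes) and 1 RPE and 1 cone marker lower (1.53% of all genes). No marker of any list was at 0 in every library. By the study's methods the retina was taken off before the RPE RNA was collected. In bulk tissue, the amount of retina left on the eyecup, fewer cells of a type and less RNA per cell cannot be told apart. The part of these markers in the results below was not tested.

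To ask which steps of the thioredoxin and glutaredoxin systems responded to Nrf2, the eyes of each mouse were compared with edgeR's quasi-likelihood test, and adjusted p under 0.05 over all genes was the threshold. CPM are scaled by library totals alone, whereas log2 changes and differences within a mouse also carry TMM factors, so their signs can differ for small changes. Txnrd1 and Srxn1 rose, and the other 8 genes did not pass. Hence 2 of 10 genes were higher, where 2.94% of all tested genes were, and 0 of 10 were lower, where 0.491% of all tested genes were. At an unadjusted p under 0.05 the count was also 2 higher (10.7% of all genes) and 0 lower (7.49% of all genes), and DESeq2 called 2 higher (7.6% of all genes) and 0 lower (4.33% of all genes). Against these wider shares, 2 of 10 stands out less than against that of the edgeR test. The median log2 fold change of the 10 genes was 0.14, and that of all 16289 genes was -0.04. Without mice 3 and 4, again 2 of 10 genes were higher (2.98% of all genes) and 0 were lower (1.53% of all genes).

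**Figure D1:**
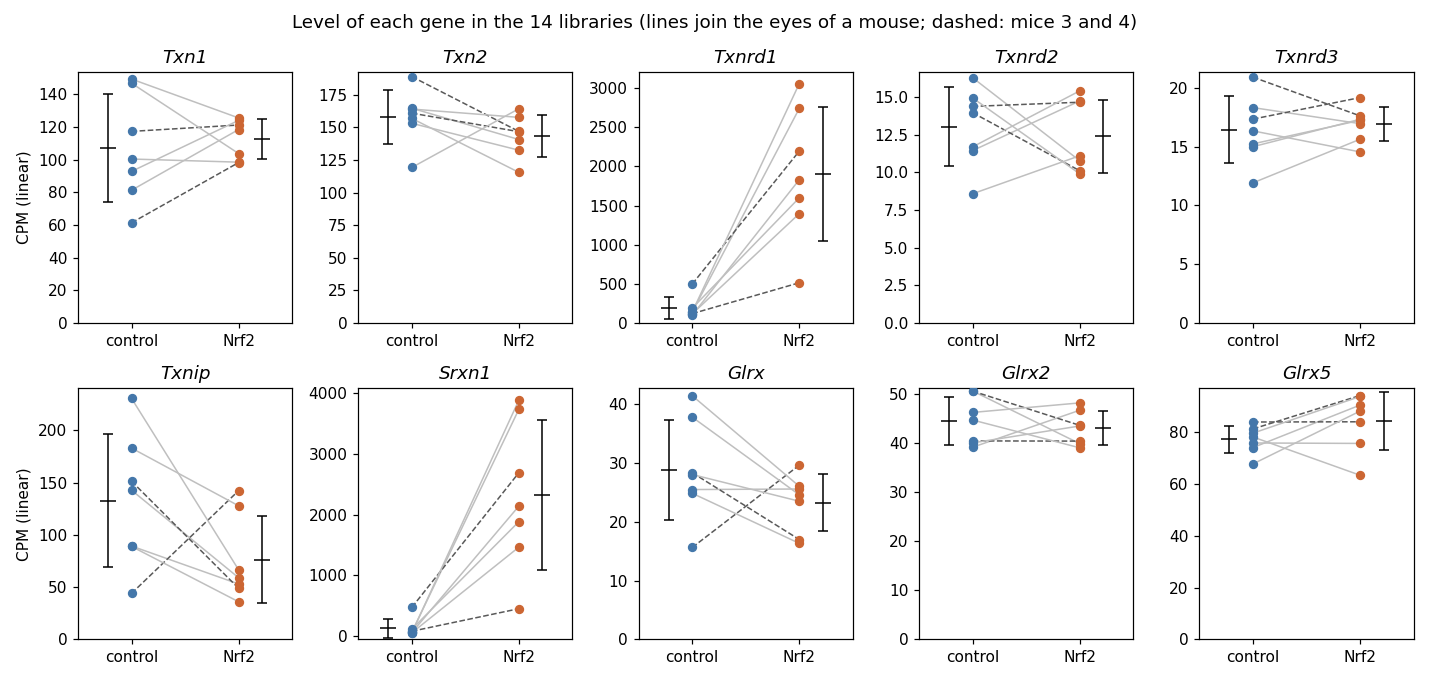
CPM of each of the 10 genes in the 7 control and 7 Nrf2 libraries. Points are libraries, lines join the eyes of 1 mouse (dashed for mice 3 and 4), and the bar beside each group is its mean ± SD. Txnrd1 and Srxn1 climb in every mouse, whereas lines of the other genes cross or run flat and Txnip falls in 6 of 7 mice.

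Of the reductases the cytosolic one rose. Txnrd1 (ENSMUSG00000020250) lies on chromosome 10 from 82833951 to 82897712 on the plus strand (GRCm38). It stood at 102 CPM at the lowest, 141 CPM at the median and 499 CPM at the highest in control eyes, and at 515, 1830 and 3057 CPM in Nrf2 eyes. The groups did not overlap, but control 3 at 499 CPM and Nrf2 4 at 515 CPM nearly met, while the next highest control library, control 5, had 191 CPM. Of the 10 genes Txnrd1 alone showed no overlap, which 1.79% of all genes did. Over all mice Txnrd1 rose by 3.53 (log2, SE 0.37, adjusted p 0.00936). The rise was 4.01 (SE 0.30, adjusted p 0.00294) without mice 3 and 4. The log2 difference within a mouse was 4.63, 3.50, 2.35, 2.26, 3.23, 4.14 and 4.53 in mice 1 to 7, and flipping the signs of these values in every way (exact permutation test, two-sided) gave p = 0.0156, the smallest value that 7 mice allow.

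Srxn1, the repair enzyme of overoxidized peroxiredoxins, changed most among the 10 genes in size. Srxn1 (ENSMUSG00000032802) lies on chromosome 2 from 152105516 to 152111376 on the plus strand. Control eyes had 49.1 CPM at the lowest, 60.2 CPM at the median and 468 CPM at the highest, and Nrf2 eyes had 447, 2140 and 3889 CPM. Here the groups did overlap, because control 3 stood above Nrf2 4. The other 6 control libraries reached at most 108 CPM, and the other 6 Nrf2 libraries had at least 1462 CPM. Srxn1 rose by 4.67 on the log2 scale (SE 0.58, adjusted p 0.00936), and by 5.42 (SE 0.43, adjusted p 0.00296) without mice 3 and 4. Every mouse showed a rise, of 2.73 at the least and 6.41 at the most (log2). Only Srxn1 and Txnrd1 of the 10 genes were higher in every mouse, as were 5.65% of all genes.

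Among the substrates of Srxn1, Prdx1, the main cytosolic peroxiredoxin, rose by 2.01 (log2, SE 0.27, adjusted p 0.0104) and did so in 7 of 7 mice. The other peroxiredoxins of this type did not pass in edgeR, among them Prdx2, cytosolic like Prdx1, at 0.004 (SE 0.14, adjusted p 0.99), mitochondrial Prdx3 at 0.08 (SE 0.10, adjusted p 0.71) and Prdx4 of the endoplasmic reticulum at 0.29 (SE 0.19, adjusted p 0.44).

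The other reductases did not move with Txnrd1. Txnrd2 (ENSMUSG00000075704, chromosome 16, 18426384 to 18479073), the mitochondrial reductase, ranged from 8.59 to 16.3 CPM in control (median 13.97) and from 9.92 to 15.4 CPM in Nrf2 eyes (median 11.1). The ranges lay almost on top of each other. It changed by 0.06 on the log2 scale (SE 0.16, adjusted p 0.88), with a mean paired difference whose 95% interval, from inverting the exact sign-flip test, was -0.34 to 0.40. Txnrd3 (ENSMUSG00000000811, chromosome 6, 89643988 to 89675529), a fusion of a glutaredoxin domain with a reductase known mainly from testis, had 11.9 to 20.9 CPM in control and 14.5 to 19.2 CPM in Nrf2 eyes. It changed by 0.19 (log2, SE 0.12, adjusted p 0.44, interval -0.06 to 0.36).

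Neither thioredoxin passed. Txn1 (ENSMUSG00000028367, chromosome 4, 57943373 to 57956411, minus strand), the cytosolic form, had 61.4 to 149 CPM in control eyes (median 100.4) and 98.2 to 126 CPM in Nrf2 eyes (median 118). Control eyes thus spread on both sides of the Nrf2 range. Its change of 0.26 (log2, SE 0.18, adjusted p 0.48) was a rise in 4 of 7 mice, and the interval of -0.31 to 0.85 still holds a rise by nearly 1 log2 unit. Txn2 (ENSMUSG00000005354, chromosome 15, 77915047 to 77929006, minus strand), the mitochondrial form, went from 119 to 189 CPM in control and from 115 to 164 CPM in Nrf2 eyes. Its mean CPM was 158 ± 20.7 in control and 143 ± 16.1 in Nrf2 eyes (SD, n = 7). After TMM scaling the log2 change was -0.01 (SE 0.12, adjusted p 0.98, interval -0.28 to 0.26), and the sign turned with the scaling or the mice used, between -0.09 and 0.07.

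The glutaredoxins also stayed below the threshold. Glrx (ENSMUSG00000021591, chromosome 13, 75839868 to 75850154), the cytosolic form, had 15.6 to 41.4 CPM in control (median 28.02) and 16.3 to 29.6 CPM in Nrf2 eyes (median 24.6), which gave a change of -0.16 on the log2 scale (SE 0.21, adjusted p 0.72, interval -0.58 to 0.47). It was lower in 6 of 7 mice, and mouse 4 had a difference of 1.09 the other way. Glrx2 (ENSMUSG00000018196, chromosome 1, 143716338 to 143749676), whose main product is mitochondrial, held at 39.2 to 50.7 CPM in control and 39.1 to 48.3 CPM in Nrf2 eyes. Its interval was the narrowest of the 10 genes, -0.03 to 0.19 (log2 fold change 0.08, SE 0.08, adjusted p 0.62). Glrx5 (ENSMUSG00000021102, chromosome 12, 105032688 to 105042906) had 67.6 to 83.8 CPM in control and 63.3 to 94.0 CPM in Nrf2 eyes. In 6 of 7 mice the Nrf2 eye had more, and the change was 0.25 (log2, SE 0.12, adjusted p 0.32, interval -0.09 to 0.50). Only under voom with quality weights did it pass (0.33, adjusted p 0.0431), where 9.73% of all genes were called higher.

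Txnip, an alpha-arrestin that binds and inhibits thioredoxin and limits glucose uptake, had the largest downward difference of the 10 genes, one that did not pass with all mice. Txnip (ENSMUSG00000038393, chromosome 3, 96557957 to 96561883) stood at 44.0 CPM at the lowest, 143 CPM at the median and 231 CPM at the highest in control eyes, and at 36.0, 59.0 and 142 CPM in Nrf2 eyes. The groups overlapped broadly, with 6 of 7 Nrf2 libraries inside the control range and control 4 below all of those 6. Over all mice the change was -0.73 (log2, SE 0.41, adjusted p 0.38), downward in 6 of 7. Mouse 4 was the exception, with a difference of 1.87 against -1.82 to -0.36 in the others. Without mouse 4 Txnip passed at -1.09 (adjusted p 0.0161), in a fit that called 6.25% of all genes lower. Without mice 3 and 4 it was -1.02 (SE 0.24, adjusted p 0.0601). Control 4 also had the most cone marker RNA of all libraries (1054 CPM), and control 6, with the most Txnip, had the least RPE marker RNA (8840 CPM). The part of either in the difference was not tested.

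**Figure D2:**
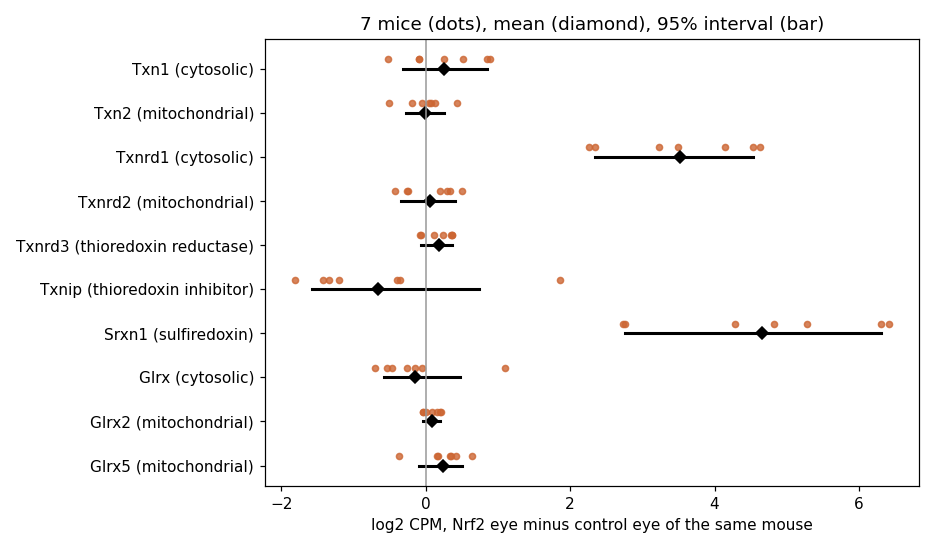
Difference in log2 CPM between the Nrf2 eye and the control eye of the same mouse for the 10 genes, with their compartment or role in brackets. Dots are the 7 mice, diamonds their mean and bars the 95% interval from the exact sign-flip test; only the bars of Txnrd1 (2.35 to 4.53) and Srxn1 (2.76 to 6.30) lie away from 0.

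To compare cytosolic with mitochondrial isoforms, the log2 ratio of the paired genes was taken within each library, where library scaling cancels, and its change from control to Nrf2 eye was tested over the 7 mice. Of 4 pairs, only that of the reductases changed in 7 of 7 mice. Per kilobase of transcript, Txnrd1 exceeded Txnrd2 by a median of 6.35 times in control eyes (4.53 to 19.2) and 88.5 times in Nrf2 eyes (18.9 to 136). The highest control value, 19.2 in control 3, slightly exceeded the lowest Nrf2 value, 18.9 in Nrf2 4. The mean change of the log2 ratio was 3.46 ± 0.93 (SD, n = 7, interval 2.60 to 4.34), with p = 0.0156 when all sign flips were enumerated (two-sided exact permutation test) and 0.0625 adjusted over the 4 pairs. An adjusted value under 0.05 was out of reach with 7 mice unless several pairs moved in all of them. With the labels permuted over all 14 libraries, without pairing, the exact permutation test gave an adjusted p of 0.00466. Without mice 3 and 4 the mean change was 3.91.

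The remaining pairs did not pass. The change of Txn1 against Txn2 was 0.27 ± 0.65 (SD, n = 7, interval -0.39 to 0.77, exact sign-flip permutation p = 0.31) and was upward in 5 of 7 mice. For Glrx against Glrx2 it was -0.23 ± 0.64 (SD, n = 7, interval -0.74 to 0.44, exact permutation p = 0.38), downward in all mice but mouse 4. For Glrx against Glrx5 it was -0.40 ± 0.74 (SD, n = 7, interval -0.97 to 0.31, exact permutation p = 0.20). All 3 had an adjusted p of 0.38. Without mice 3 and 4 their mean changes were 0.13, -0.41 and -0.55 in the same order. The intervals over 7 mice do not show that the cytosolic and mitochondrial forms acted alike, and whether the pairs differed from each other was not tested.

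**Figure D3:**
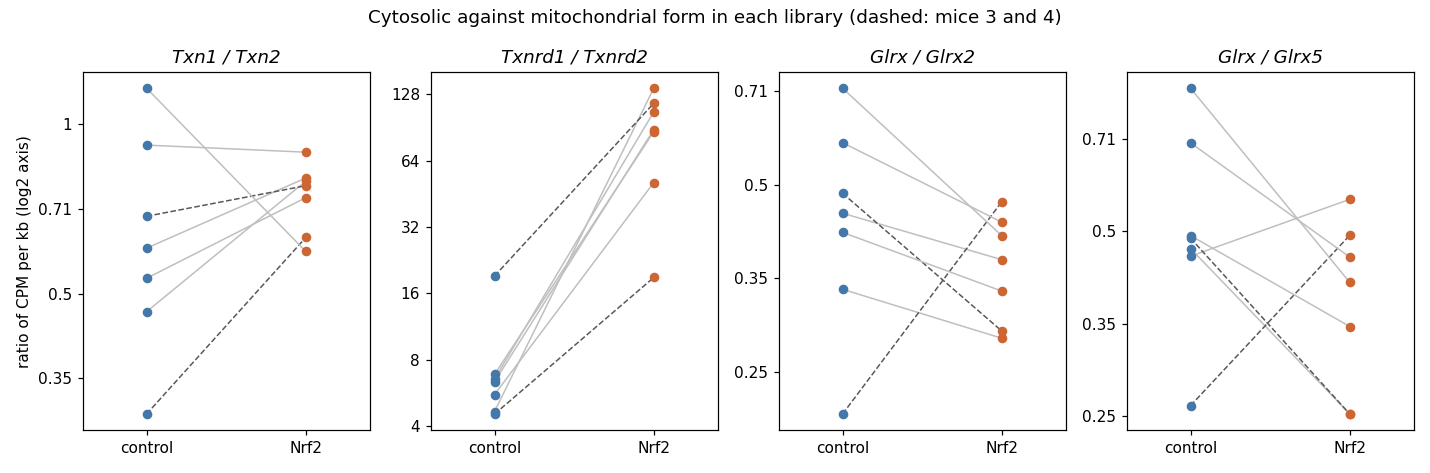
Ratio of the cytosolic to the mitochondrial form, in CPM per kilobase of transcript, in each library (log2 axis, own range in each panel). Points are libraries and lines join the eyes of 1 mouse, dashed for mice 3 and 4. Txnrd1 to Txnrd2 climbs in all 7 mice, from a median of 6.35 to 88.5, and the lines of the other 3 pairs run in both directions.

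Compared per kilobase of transcript, the thioredoxins led in control eyes. Txn2 had 160 ± 20.9 CPM per kilobase (SD, n = 7) and Txn1 102 ± 31.2, with Txn2 the higher in every control library except control 6. A middle group followed with overlapping SDs: Txnrd1 at 56.5 ± 42.1, Glrx2 at 48.3 ± 5.29, Txnip at 47.3 ± 22.6, Srxn1 at 43.9 ± 54.6 and Glrx5 at 41.5 ± 2.86. Control 3 decided the place of Srxn1 and moved that of Txnrd1: over the other 6 control libraries, a comparison chosen after seeing the data, Srxn1 had 23.5 ± 8.12 and Txnrd1 40.9 ± 9.29 CPM per kilobase (SD, n = 6). Srxn1 then stood beside Glrx, and Txnrd1 no longer headed the group. Glrx had 21.6 ± 6.43, and Txnrd2 (7.31 ± 1.47) and Txnrd3 (6.16 ± 1.06) were lowest. In Nrf2 eyes Srxn1 (825 ± 437) and Txnrd1 (573 ± 257) came first, ahead of Txn2 (145 ± 16.4) and Txn1 (107 ± 11.6). The cytosolic reductase therefore went from a median of 0.485 transcripts per Txn1 transcript in control (0.219 to 1.34) to 5.57 in Nrf2 eyes (1.66 to 7.79). In mitochondria the same ratio, Txnrd2 to Txn2, had medians of 0.0422 and 0.0424. Median lengths of coding transcripts were used, so the order depends on which isoforms the RPE makes.

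Vector levels varied among Nrf2 eyes, which let the genes be set against them. This relation was examined after the levels had been seen. Over the 7 Nrf2 eyes, log2 CPM of human NFE2L2 and of Txnrd1 had a Pearson r of 0.970 (exact permutation p = 0.00198, adjusted over the 10 genes 0.00926) and a Spearman rho of 0.857 (exact permutation p = 0.0238, adjusted 0.0595). For Srxn1, r was 0.964 (exact permutation p = 0.00278, adjusted 0.00926) and rho again 0.857. Txnip ran the other way, with an r of -0.828 (exact permutation p = 0.00159, adjusted 0.00926) and a rho of -0.893 (exact permutation p = 0.0123, adjusted 0.0595). Without the library labelled Nrf2 4, which had the least vector, r over the other 6 was 0.877 for Txnrd1, 0.853 for Srxn1 and -0.860 for Txnip, and the 3 relations no longer passed (each with an adjusted p of 0.14, exact permutation test, an alternative chosen after seeing the data). When Nrf2 4 and Nrf2 1, the libraries farthest from the median vector level, were left out, r over the other 5 was 0.843, 0.794 and -0.956 in the same order. For Glrx rho was -0.857 (exact permutation p = 0.0238, adjusted 0.0595) but r only -0.660 (exact permutation p = 0.0956, adjusted 0.23). Its r was -0.601 without Nrf2 4 and -0.360 without Nrf2 4 and Nrf2 1, so the size of r depended on those libraries. The other 6 genes had r between -0.29 and 0.58, with adjusted p of 0.23 or more in the exact permutation test.

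Counts of the vector transcript were present in control eyes as well, and in control 3 they reached the level of Nrf2 4. Srxn1 was 468 CPM in control 3 (vector 1163 CPM), 108 CPM in control 5 (175 CPM) and 74.5 CPM in control 4 (75.5 CPM), and between 49.1 and 60.2 CPM in the 4 libraries with at most 51.8 CPM of vector. Txnrd1 was likewise highest in control 3 and control 5, but did not follow the vector below them. It was 121 CPM in control 4 and 118 CPM in control 2. Control 7 and control 1, with less vector (7.79 and 1.12 CPM), had 142 and 141 CPM. Control 6, with 1.18 CPM of vector, had the lowest Txnrd1, at 102 CPM. Among the 4 libraries with at most 51.8 CPM of vector, Srxn1 did not follow its order either. It was 60.2 CPM in control 1 and 49.5 CPM in control 2.

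**Figure D4:**
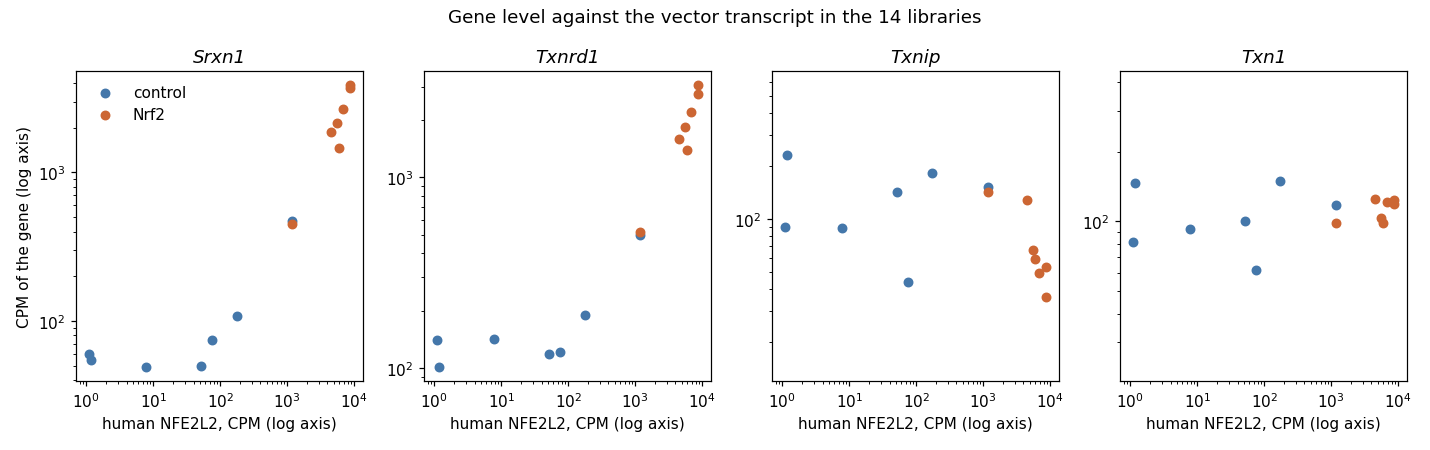
CPM of Srxn1, Txnrd1, Txnip and Txn1 against CPM of human NFE2L2 in all 14 libraries (log axes). Srxn1 and Txnrd1 climb from the level of control 3 and Nrf2 4, which lie on top of each other at 1163 CPM of vector, to the 6 other Nrf2 libraries; Txnip falls towards the highest vector levels and Txn1 stays within 61.4 to 149 CPM.

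The wider pathways were described by lists fixed with earlier results of these data known. Of 23 genes with a thioredoxin fold, or named as relatives, 2 rose (2.94% of all genes) and 1 fell (0.491% of all genes) in edgeR. The median log2 fold change was 0.08. DESeq2 called 2 higher (7.6% of all genes) and 2 lower (4.33% of all genes). At an unadjusted p under 0.05, 4 were higher (10.7% of all genes) and 2 lower (7.49% of all genes). Without mice 3 and 4, 1 was higher (2.98% of all genes) and 1 lower (1.53% of all genes). Txndc16, for a thioredoxin domain protein of the endoplasmic reticulum, went from 63.0 to 180 CPM (1.67, SE 0.23, adjusted p 0.0112), and the cytosolic thioredoxin-like gene Txnl1 from 74.1 to 90.5 CPM (0.42, SE 0.08, adjusted p 0.0337). Txnl1 did not pass without mice 3 and 4 (adjusted p 0.0872). Nxnl1, which encodes the rod-derived cone viability factor of photoreceptors, fell from 20.8 to 4.37 CPM (-2.27, SE 0.28, adjusted p 0.00936), together with the cone markers above. Of 12 enzymes that thioredoxin or glutaredoxin reduces, Prdx1 alone passed in edgeR, where 2.94% of all genes were higher (list median 0.24). DESeq2 called 1 higher (7.6% of all genes), and 2 were higher at an unadjusted p under 0.05 (10.7% of all genes). The ribonucleotide reductase and methionine sulfoxide reductase genes had adjusted p of 0.27 or more.

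Thioredoxin reductases need selenocysteine, and of 10 genes for selenoprotein synthesis 0 passed in edgeR, 0 in DESeq2 and 0 at an unadjusted p under 0.05 (median -0.02). The smallest p was that of the selenocysteine lyase gene Scly, at 0.27 (SE 0.12, adjusted p 0.28). Of 17 genes of iron-sulfur cluster assembly, the pathway of Glrx5, 0 passed in edgeR, 2 were higher in DESeq2 (7.6% of all genes) and 5 were higher at an unadjusted p under 0.05 (10.7% of all genes). All 17 had a log2 fold change above 0 (median 0.29), as did 45.2% of all genes. Closest to the threshold was the scaffold gene Iscu (0.62, SE 0.14, adjusted p 0.0512), higher in 7 of 7 mice. Of 8 alpha-arrestins and glucose-sensing factors related to Txnip, 7 were tested, 0 passed in edgeR or DESeq2, 2 were lower at an unadjusted p under 0.05 (7.49% of all genes) and all 7 were below 0 (median -0.71), as were 54.8% of all genes. Mlxip, for the glucose sensor MondoA that drives Txnip, had the smallest p (-0.71, SE 0.27, adjusted p 0.22). Without mice 3 and 4, 2 of the list were lower in edgeR (1.53% of all genes). They were Arrdc3 (adjusted p 0.0401) and Arrdc4 (adjusted p 0.0284), alpha-arrestins like Txnip. Txnip itself did not pass in that fit (adjusted p 0.0601).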

How the data were processed

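RPE RNA from 14 eyes of 7 mice was amplified with a low-input kit and sequenced in 2 runs that the labels do not assign to libraries. The study's methods state 1 pair fewer at this age than the 7 that the labels give; all 7 were used, and which pair was left out there is not given in the sources used here. The authors aligned reads to mm10 with Ensembl release 91 (STAR), counted them with featureCounts and, in parallel, quantified transcripts with Salmon (version 0.9.1 per the submitters' processing notes). What was deposited was taken as estimated counts per gene, in whole numbers and without normalization. Which program made them is not given in the sources used here and was inferred from the rows (21751 protein-coding genes and 12145 pseudogenes). Such counts can divide reads among near-identical genes by a model, as for Txn1 and its pseudogene. Symbols, positions and median coding transcript lengths came from GENCODE M21 (GRCm38), which matched 34401 of 34452 rows, and promoters from RefSeq (GRCm38.p6).

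Counts were tested with edgeR 4.0.16 (R 4.3.3; TMM, filterByExpr with a minimum count of 10, mouse and treatment as terms, Benjamini-Hochberg adjustment over 16290 rows including the vector). Eyes were paired by the number that their labels share, taken here as that of the mouse. Deviations of same-numbered eyes correlated between -0.37 and 0.36, so the counts do not show by themselves which eyes share a mouse. Differences within a mouse, in TMM-scaled log2 CPM with a prior count of 2, were tested by exact two-sided sign flips. Intervals are at 95%. The fit and the sign-flip test were tested on simulated data. Alternatives used DESeq2 1.42.0, voom (limma 3.58.1), other scalings and filters, no block, and fewer mice. The 10 genes, gene lists and tests were chosen with earlier results of these data known. Named were all 10 genes, the vector and Nfe2l2. Per list, up to 4 genes past the threshold in each direction were named, or else the gene of smallest p. Prdx2, Prdx3, Prdx4, Arrdc3, Arrdc4 and the marker genes Rpe65, Ttr, Rlbp1 and Rom1 were named after their values were seen.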

Additional observations from a re-analysis of the deposited data

Results flagged for a closer look

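In 20 groups of 7 values (10 genes in each treatment group), 2 contained a library that stood apart at 1 end, and about 1 would by chance. Both belong to the library labelled control 3: Txnrd1 at 499 CPM, where the next control library had 191 CPM, and Srxn1 at 468 CPM, where the next had 108 CPM. The vector transcript of that library was 1163 CPM, and no explanation was tested.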

How the results depend on the processing

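Txnrd1 and Srxn1 stayed higher and past the threshold under all 15 alternatives, with log2 fold changes of 3.33 to 4.01 and 4.37 to 5.42 and adjusted p of at most 0.0383. Of the other 8 genes, Txn1, Txn2, Txnrd2, Txnrd3, Glrx and Glrx2 passed under 0 of 15 alternatives, Glrx5 under voom only and Txnip without mouse 4 only, so the count of lower genes was 0 to 1 with 1 mouse left out at a time. The sign of Txn2 and Txnrd2 changed between alternatives. The number of all differing genes, 559 in the paired test, was 1100 without a replicate block, 347 without a filter, 1943 with DESeq2, 2592 with voom and 111 (mouse 7 left out) to 1998 (mouse 4 left out) in leave-one-out fits; the cause was not tested. The change of Txnrd1 against Txnrd2 was 3.46 with and without pairing and passed only without it. Removing the block changed no other call among the 10 genes or the 4 pairs. With 5 mice the sign-flip test cannot go below 0.0625. Counts of low-abundance Txnrd2 and Txnrd3 had the least depth, at least 204 per library.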

Other observations

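Libraries control 4 and control 6 bounded the control range in several of the genes. Control 4 had the lowest Txn1 (61.4 CPM), Txnip (44.0 CPM) and Glrx (15.6 CPM) and the highest Txn2 (189 CPM) and Txnrd3 (20.9 CPM). Control 6 had the highest Txnip (231 CPM) and Glrx (41.4 CPM), the second highest Txn1 (147 CPM), and the lowest Txn2 (119 CPM), Txnrd2 (8.59 CPM) and Txnrd3 (11.9 CPM). Summed RPE markers were 19570 CPM in control 4 and 8840 CPM in control 6, the highest and lowest of the control eyes, and cone markers were 1054 and 67.2 CPM. No explanation was tested for this order.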
